A study of Mus musculus with 16 samples.

Results

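The mRNAs of mitochondrial ribosomal proteins were followed through 6 groups of mouse skeletal muscle RNA. These genes are transcribed in the nucleus and their mRNAs are read by cytosolic ribosomes, and the proteins are then imported into mitochondria and assembled into the ribosome that translates the mRNAs of mitochondrial DNA. That ribosome has a large subunit, whose proteins are named Mrpl and which forms the peptide bond, and a small subunit, whose proteins are named Mrps and which decodes the mRNA. In muscle, its products are core subunits of the respiratory chain. Members were all genes on the array whose name begins with Mrpl or Mrps and a number, which gave 77 genes, 48 of the large and 29 of the small subunit by name, among 109 probes. Each gene was represented by its probe with the highest mean signal, and all 77 of these probes entered the tests, among 19785 tested probes in the comparisons of whole muscle and polysome RNA and 20222 in those with monosome RNA.

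The RNA came from gastrocnemius, a mixed muscle of the calf, of male C57BL6 mice aged 8 to 16 weeks that were either wild type (WT) or heterozygous for Eif6 (Eif6+/-, called Het), with 3 littermate mice of each genotype and no treatment. Eif6 encodes a factor that binds the large cytosolic ribosomal subunit and keeps it from joining the small one. Lysates were made with cycloheximide, which holds ribosomes on mRNA, and were spread on sucrose gradients, so that each mouse gave whole muscle RNA, polysome RNA from fractions with several ribosomes on an mRNA and, in 2 mice of each genotype, monosome RNA. Each RNA was hybridised to a 1-colour Agilent array of 60-base probes, 16 arrays in all, and values are log2 signals after quantile normalization. Polysome loading is, for each mouse, its polysome signal less its whole muscle signal in log2. The signal of 1 probe is not comparable with that of another as an mRNA level, so differences were taken between arrays, and where members are ordered by probe signal the order is one of probe brightness. Whole gastrocnemius holds fibres, blood, vessels and other cells, and fewer cells of a type cannot be told apart from less RNA per cell.

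The labels were first compared with the arrays. Eif6 ranged from 8.97 to 9.66 in WT whole muscle and from 8.21 to 8.40 in Het whole muscle, from 9.95 to 10.71 in WT and 8.87 to 9.12 in Het polysomes, and from 9.36 to 10.16 in WT and 7.82 to 8.06 in Het monosomes, so Het lay below WT in each kind of RNA with no overlap. Where the Eif6 probe lies relative to the altered part of the gene is not given in the sources used here. All 9 muscle fibre markers were well above background on all 16 arrays. Arrays WT polysome 2 and WT monosome 2 stood apart: over 1200 transcripts with probes at least 500 bases apart, the median of 5′ minus 3′ probe signal was 0.38 and 0.56 on these arrays and between -1.20 and -0.79 on the other 14. Overall brightness also moved with genotype. The 75th percentile of signal ranged from 42.3 to 150.1 in WT and from 13.5 to 33.0 in Het whole muscle, and from 24.1 to 66.1 in WT and from 63.1 to 106.4 in Het polysomes. The 5 blood markers, 4 of them well above background on every array, summed to a log2 signal of 16.29 to 17.54 in WT polysomes and of 15.27 to 15.69 in Het polysomes, against 15.12 to 15.73 and 15.55 to 15.71 in whole muscle. The parts of brightness, RNA state and blood in the differences between genotypes were not tested, except where a value without an array or with a brightness term is given.

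The probes read spliced mRNA in the cases where they could be seen to cross an intron. In 10 of the 77 members the probe's mm9 position spanned more than its own length. For 3 of the members described most fully, Mrps5 (chr2:127426599-127427149, + strand), Mrps9 (chr1:42956365-42960169, + strand) and Mrpl37 (chr4:106733238-106734539, - strand), the probe is shown because a signal from it needs joined exons.
Mrps5: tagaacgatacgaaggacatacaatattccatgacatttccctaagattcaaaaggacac
Mrps9: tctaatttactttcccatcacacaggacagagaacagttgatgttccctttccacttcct
Mrpl37: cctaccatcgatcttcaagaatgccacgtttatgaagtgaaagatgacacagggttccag

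Members are known to share promoter features, so the RefSeq promoter windows of build GRCm38.p6, 250 bases before to 50 after each gene's start, were searched on both strands for 3 motifs. Windows were matched by symbol for 68 of the 77 members. The motif CCGGAAG, read by ETS factors such as GABPA, was in 25 of the 68, or 36.8%, against 9.93% of 27025 genes and 34.2% of 76 cytosolic ribosomal protein genes. AAGATGGC, read by YY1 and also the core of a start-codon element found in mRNAs with very short leaders, was in 12, or 17.6%, against 3.19% of all genes and 7.89% of cytosolic ribosomal protein genes. GCATGCGC, read by NRF1, a regulator of nuclear genes for mitochondria, was in 8, or 11.8%, against 3.05% and 6.58%. By subunit, NRF1 letters were in 7 of 42 large and 1 of 26 small subunit genes, and ETS letters in 14 and 11. A match is a stretch of letters and not a site shown to be bound.

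Promoter windows are given for 5 members that later results turn on, Mrps27 (chr13:99344536-99344835, + strand), Mrpl37 (chr4:107066817-107067116, - strand) and Mrpl35 (chr6:71823735-71824034, - strand), which had high loading differences, Mrps12 (chr7:28741772-28742071, - strand), which lay high on WT polysomes, and Mrps5 (chr2:127587176-127587475, + strand), which had the highest loading difference and none of the 3 motifs. The rank of Mrps5 was that of the main fit and did not hold with another background correction, as given below. Capitals mark motif matches. In Mrps27, Mrpl37 and Mrpl35 the YY1 letters lay after the annotated start, within the last 50 bases, and in Mrps12 they lay upstream on the other strand, with ETS letters just after the start.
Mrps27: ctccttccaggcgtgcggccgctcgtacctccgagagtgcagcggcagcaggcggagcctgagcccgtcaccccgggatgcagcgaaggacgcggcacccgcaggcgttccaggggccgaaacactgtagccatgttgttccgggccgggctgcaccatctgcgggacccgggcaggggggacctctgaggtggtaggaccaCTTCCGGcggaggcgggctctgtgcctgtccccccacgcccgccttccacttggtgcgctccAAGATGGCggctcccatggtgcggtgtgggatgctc
Mrpl37: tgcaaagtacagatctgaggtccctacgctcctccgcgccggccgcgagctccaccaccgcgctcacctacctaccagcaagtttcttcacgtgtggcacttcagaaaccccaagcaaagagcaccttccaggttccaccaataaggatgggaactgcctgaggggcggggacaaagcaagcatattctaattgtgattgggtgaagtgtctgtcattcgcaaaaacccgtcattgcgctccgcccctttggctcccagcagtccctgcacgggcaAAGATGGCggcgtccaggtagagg
Mrpl35: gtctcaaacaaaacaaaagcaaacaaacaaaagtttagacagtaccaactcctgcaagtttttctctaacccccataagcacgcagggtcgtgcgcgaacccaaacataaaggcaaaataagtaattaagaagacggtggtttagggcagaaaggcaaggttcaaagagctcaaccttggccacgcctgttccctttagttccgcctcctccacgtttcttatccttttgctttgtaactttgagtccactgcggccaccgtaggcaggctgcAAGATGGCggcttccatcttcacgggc
Mrps12: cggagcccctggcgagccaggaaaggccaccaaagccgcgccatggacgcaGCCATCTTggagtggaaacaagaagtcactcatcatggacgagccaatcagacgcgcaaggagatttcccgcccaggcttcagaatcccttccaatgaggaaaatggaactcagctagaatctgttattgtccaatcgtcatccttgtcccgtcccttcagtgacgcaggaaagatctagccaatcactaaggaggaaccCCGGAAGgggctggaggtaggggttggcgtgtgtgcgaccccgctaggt
Mrps5: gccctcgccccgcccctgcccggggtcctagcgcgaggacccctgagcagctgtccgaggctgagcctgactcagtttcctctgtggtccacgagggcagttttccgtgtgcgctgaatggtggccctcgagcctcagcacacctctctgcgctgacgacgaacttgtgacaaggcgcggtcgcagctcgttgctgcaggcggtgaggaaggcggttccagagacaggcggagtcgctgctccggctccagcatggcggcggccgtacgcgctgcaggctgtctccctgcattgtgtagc

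By group means, members were at like levels in whole muscle and polysomes and lower in monosomes, though single arrays overlapped. The large subunit mean was 9.22 on array Het monosome 1 and 9.12 on Het whole muscle 3. The mean log2 signal over the 48 large subunit probes was 9.23 ± 0.12 (SD, n = 3) in WT whole muscle, 9.28 ± 0.14 (SD, n = 3) in Het whole muscle, 9.25 ± 0.10 (SD, n = 3) in WT polysomes and 9.46 ± 0.10 (SD, n = 3) in Het polysomes. In monosomes it was 8.57 ± 0.17 (SD, n = 2) in WT and 9.11 ± 0.15 (SD, n = 2) in Het. The small subunit had 9.04 and 9.10 in whole muscle, 9.02 and 9.29 in polysomes and 8.23 and 8.80 in monosomes, WT before Het, so in both subunits Het polysomes were highest and WT monosomes lowest. The difference of the 2 means, large minus small, lay between 0.12 and 0.27 on the 12 whole muscle and polysome arrays and between 0.28 and 0.39 on the 4 monosome arrays. On array WT monosome 2, 66 of the 77 members were well above background, against 74 to 77 on the other arrays. The 11 that were not were Mrpl1, Mrpl19, Mrpl35, Mrpl46, Mrpl49, Mrpl50, Mrps5, Mrps9, Mrps22, Mrps27 and Mrps35.

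**Figure D1:**
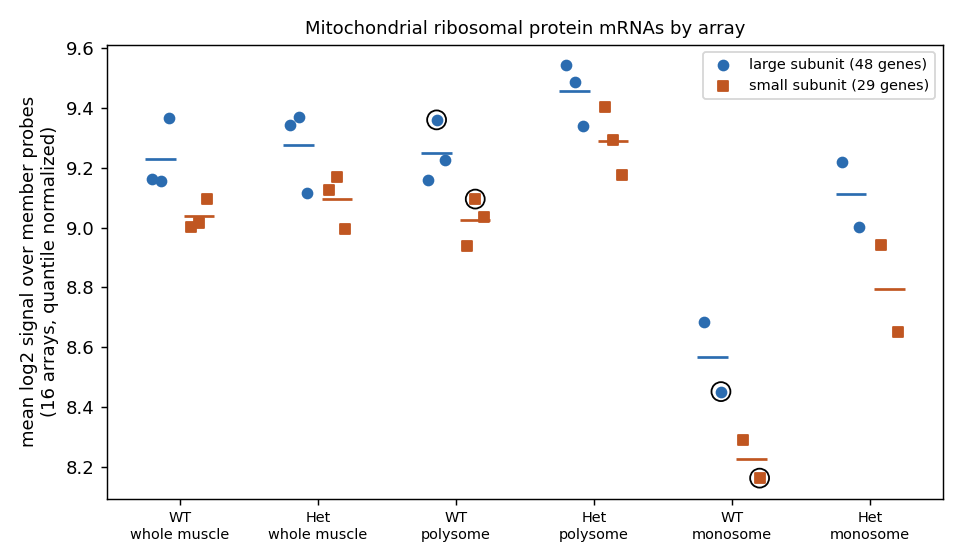
Mean log2 signal (vertical axis) of the 48 large subunit probes (circles) and the 29 small subunit probes (squares) on each of the 16 arrays, by genotype and kind of RNA, with group means as bars; black rings mark WT polysome 2 and WT monosome 2. Het polysome means (9.46 and 9.29) are the highest and WT monosome means (8.57 and 8.23) the lowest.

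In WT muscle, members were spread widely between polysomes and whole muscle. The median difference, polysome minus whole muscle, was 0.08 over the 77 members, against 0.04 over all tested probes, -0.64 over 80 cytosolic ribosomal protein genes and 0.63 over 75 nuclear genes of oxidative phosphorylation. With limma's adjusted p under 0.05, 8 members (10.4%) rose and 7 (9.09%) fell on polysomes, and the background was 10.4% of all tested probes higher and 10.7% lower, so these shares were near the background in this fit. More passed with normexp background correction, 17 higher and 11 lower against 13.9% and 12.7% of all probes, and with the authors' table, 14 and 11 against 13.3% and 13.2%. With no filter on dim probes it was 4 and 3 against 1.37% and 1.79%, and with 75th percentile scaling 4 and 9 against 11.2% and 12.6%. The highest were Mrpl20, with 1.18 (SE 0.22, adjusted p = 0.016), Mrpl2, with 1.15 (SE 0.22, adjusted p = 0.0175), and Mrps34, with 1.03 (SE 0.22, adjusted p = 0.0215). Mrpl2 sits by the peptidyl transferase centre and Mrps34 is a small subunit protein that bacteria lack. Mrps12, the decoding-site protein whose bacterial homologue gives streptomycin resistance, followed with 0.99 (SE 0.20, adjusted p = 0.0208), and the small subunit protein Mrps16 with 0.92 (SE 0.25, adjusted p = 0.0417).

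Mrpl42, Mrps5 and Mrpl30 lay lowest in WT. Mrpl42, a protein of the mitochondrial ribosome without a bacterial counterpart, was 9.83, 9.64 and 10.12 in whole muscle and 6.93, 8.77 and 7.72 in polysomes of the same 3 WT mice. The groups did not overlap, and the difference of -2.06 (SE 0.38) had an adjusted p of 0.0158. Mrps5, whose bacterial homologue takes part in decoding accuracy, was 6.35, 5.94 and 5.97 in whole muscle and 4.42, 4.64 and 4.84 in polysomes, a difference of -1.45 (SE 0.27, adjusted p = 0.0168). The second of these polysome arrays was not well above background for Mrps5, and the difference was -0.60 with normexp. Mrpl30 was 10.93, 11.01 and 11.36 in whole muscle and 9.83, 9.44 and 10.05 in polysomes, a difference of -1.32 (SE 0.22, adjusted p = 0.0124). Each of the 3 was lower in polysomes in every WT mouse. With array brightness as a term no member passed the adjusted threshold, and none of all probes did (0%). Without WT replicate 2, the count was 5 higher and 10 lower, where 7.88% and 9.43% of all probes passed. Without WT replicate 3 it was 1 and 0, against 0.753% and 3.08%, and without WT replicate 1 it was 1 and 1, against 2.57% and 5.41%. Between whole muscle and polysomes of WT, the blood, adipocyte and fibroblast and matrix marker sums did not overlap, the last with 14.62 to 14.94 and 15.79 to 15.85, and their part in these differences was not tested.

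In Het muscle the same comparison gave a median of 0.25 over members and 0.13 over all probes, and 57 of 77 members lay above 0, against 43 in WT. No member rose and 1, Mrpl30, fell with adjusted p under 0.05, where the background was 3.29% higher and 4.04% lower. Mrpl30 was 11.25, 11.20 and 11.25 in whole muscle and 10.42, 10.34 and 9.88 in polysomes, a difference of -1.03 (SE 0.22, adjusted p = 0.0408). Mrpl42, with -1.17 (SE 0.38, adjusted p = 0.0969), and Mrps24, with -1.07 (SE 0.32, adjusted p = 0.0851), were the other low members. Highest were Mrpl9, with 0.94 (SE 0.28, adjusted p = 0.0858), Mrpl35, with 0.92 (SE 0.31, adjusted p = 0.111), and Mrps23, with 0.78 (SE 0.24, adjusted p = 0.086). Mrpl35 was well above background on 1 of the 3 Het whole muscle arrays and had 0.19 with normexp, and Mrps23 had 0.21 with its tested probes averaged. Muscle fibre, slow fibre, adipocyte and fibroblast and matrix marker sums did not overlap between Het whole muscle and polysomes, with 19.85 to 19.95 and 19.99 to 20.04 for muscle fibre markers. Leaving out any of the 3 Het mice left no member past the threshold, as it left 0% of all probes higher and at most 0.00505% lower, and normexp background correction raised the count to 12 higher and 4 lower, where 7.37% and 7.42% of all probes passed, as the authors' table did to 9 and 4, against 6.87% and 7.54%. Without array WT polysome 2, which shares in the estimate of spread, 4 members rose and 3 fell, against 8.45% and 7.7% of all probes. That fewer members passed in Het than in WT does not show that loading differed between genotypes, which is the next comparison.

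**Figure D2:**
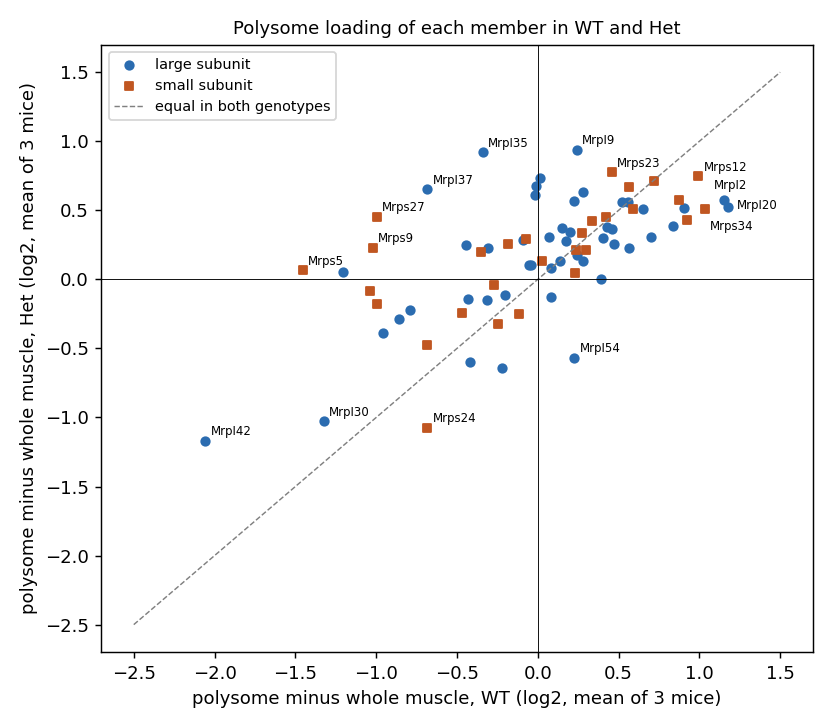
Polysome minus whole muscle log2 signal of each member in WT (horizontal) and Het (vertical), means of 3 mice, with large subunit members as circles and small subunit members as squares. Mrps5 (-1.45 in WT), Mrpl42 and Mrpl30 at the left lie above the line of equal loading, Mrps24 lies below it, and Mrpl20 (1.18 in WT), Mrpl2 and Mrps34 at the right lie below it.

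Het and WT loading were compared to ask whether a lower Eif6 dose changed which of these mRNAs are on polysomes. No member passed limma's adjusted threshold, and neither did any of the 19785 tested probes (0%). Among the 11459 probes well above background on every array, 1 member, Mrps9, was higher with an adjusted p of 0.0378, where 0.611% of the probes were. At an unadjusted p under 0.05, 6 members (7.79%) had higher loading in Het and none lower, against a background of 8.14% higher and 8.71% lower. The median difference over members was 0.10, against 0.17 over all probes, and 47 of 77 lay above 0. In 19 members (24.7%) all 3 Het mice lay above all 3 WT mice and in 4 (5.19%) all lay below, where the background was 13.6% and 11.7%. A log2 difference over 1 together with an unadjusted p under 0.05 was met by 5 members higher in Het (6.49%, background 6.75%) and by no member lower (background 7.19%).

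The 6 were 4 small subunit members, Mrps5, Mrps27, Mrps9 and Mrps22, and 2 large subunit members, Mrpl37 and Mrpl35. Mrps5 loading was -1.93, -1.30 and -1.13 in WT and -0.42, 0.56 and 0.06 in Het. Its probe was not well above background on 2 of these 12 arrays, WT polysome 2 and Het whole muscle 2, so WT mouse 2 and Het mouse 2 rest on a signal near background. All Het mice lay above all WT mice, the difference was 1.52 (SE 0.38) and limma's unadjusted p of 0.00526 became 0.127 after adjustment. The Mrps5 signal on polysomes, 4.42 to 4.84 in WT and 5.57 to 6.17 in Het, did not overlap between genotypes, while in whole muscle, 5.94 to 6.35 and 5.51 to 6.20, it did. With normexp background correction the Mrps5 difference was 0.62, and 0.55 when array brightness was added as a term.

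Mrps27, a pentatricopeptide repeat protein of the small subunit, had loading of -1.87, -0.58 and -0.54 in WT and 0.75, 0.29 and 0.32 in Het. The difference was 1.45 (SE 0.43, adjusted p = 0.175), again with no overlap, and it was 0.78 with normexp. Mrps9, whose bacterial homologue reaches the tRNA in the decoding centre, had loading of -0.91, -1.40 and -0.76 in WT and 0.13, 0.11 and 0.45 in Het, a difference of 1.25 (SE 0.31, adjusted p = 0.125), and Mrps22, another small subunit protein that bacteria lack, of -0.58, -1.74 and -0.78 against 0.04, -0.21 and -0.08, a difference of 0.96 (SE 0.38, adjusted p = 0.273). In both, WT mouse 2 was the lowest, and all Het mice were above all WT mice. Without WT mouse 2 the Mrps22 difference was 0.60, and within slide 2 it was 0.12.

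Mrpl37 is a large subunit protein specific to mitochondria. Its whole muscle signal was 8.01, 7.41 and 7.61 in WT and 6.74, 6.93 and 7.0 in Het, and its polysome signal was 6.21, 7.57 and 7.21 in WT and 7.23, 7.75 and 7.65 in Het. The loading difference of 1.34 (SE 0.51, adjusted p = 0.26) thus joined a whole muscle signal that was lower in Het without overlap with a polysome signal whose groups overlapped. WT mouse 1 had the lowest Mrpl37 loading, and without it the difference was 0.78. Mrpl35 had loading of -0.71, 0.01 and -0.32 in WT and 0.17, 0.93 and 1.66 in Het, a difference of 1.26 (SE 0.45, adjusted p = 0.228), but its 3 Het whole muscle signals ran from 4.20 to 5.59, were well above background on 1 array of the 3, and left a difference of 0.26 with normexp and 0.29 within slide 2. In a fit that held array brightness as a term, no member had an unadjusted p under 0.05, against 0.404% of all probes higher and 3.66% lower, and with slide as a term 3 were higher, against 4.63% and 7.58%. Normexp gave 12 higher and 3 lower, against 8.4% and 8.96% of all probes, the authors' values 12 and 3, against 8.7% and 8.85%, and no filter on dim probes 10 and 1, against 4.68% and 5.28%. When each mouse was left out in turn, 3 to 11 members were higher and 0 to 1 lower, against 4.36% to 9.6% and 6.79% to 8.37% of all probes.

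**Figure D3:**
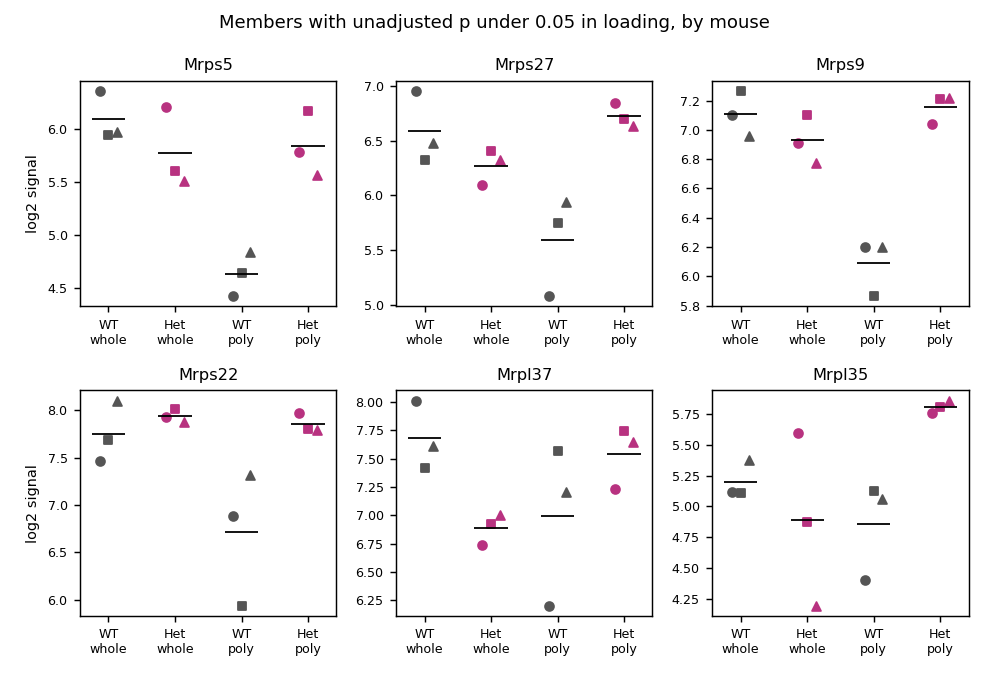
Log2 signal of the 6 members with an unadjusted p under 0.05 in loading, in whole muscle and polysomes of 3 WT (grey) and 3 Het (magenta) mice, with circle, square and triangle for replicates 1, 2 and 3 and bars for means. In Mrps5 and Mrps9 the 3 WT polysome signals (at most 4.84 and 6.20) lie below every other group.

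The lowest loading differences were those of Mrpl54, Mrpl20, Mrpl2 and Mrps34, and none had an unadjusted p under 0.05. Mrpl54 loading was -0.12, 1.03 and -0.23 in WT and -0.35, -0.64 and -0.71 in Het, a difference of -0.79 (SE 0.41, adjusted p = 0.375) in which the single high WT value came from WT polysome 2. Mrpl20 was 1.22, 1.49 and 0.83 in WT and 0.66, 0.38 and 0.54 in Het, a difference of -0.65 (SE 0.31, adjusted p = 0.338). For Mrpl2 the difference was -0.58 (SE 0.31) and for Mrps34 -0.52 (SE 0.31). Het lay below WT without overlap in these 4. Without WT mouse 2 the differences of Mrpl54 and Mrps34 were -0.39 and -0.33, and with array brightness as a term those of Mrpl54, Mrpl20, Mrpl2 and Mrps34 were -0.19, -0.099, -0.0065 and -0.15.

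**Figure D4:**
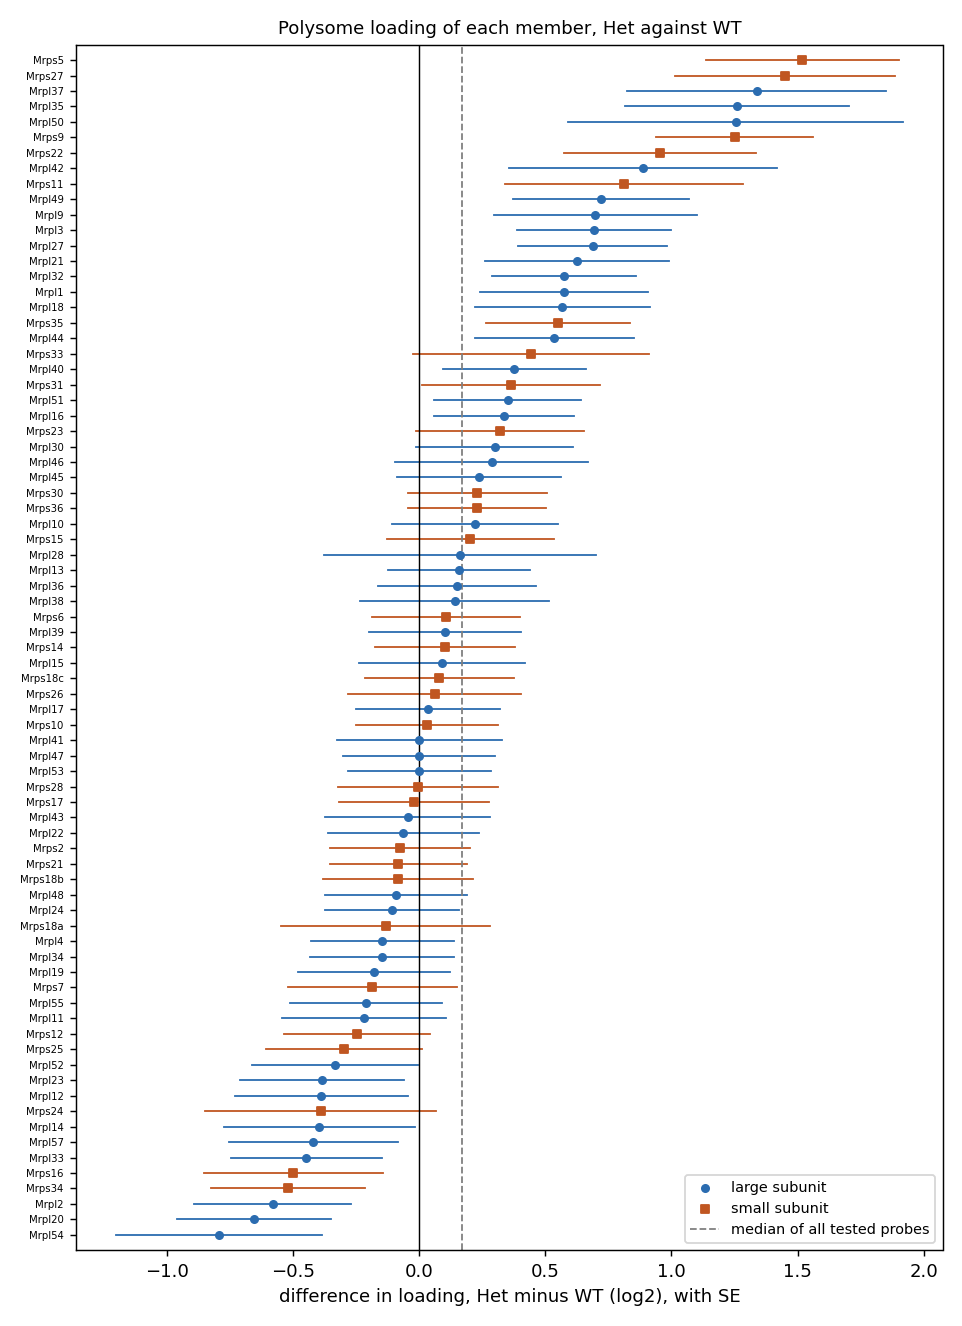
Difference in polysome loading, Het minus WT, of each of the 77 members (points) with its standard error (lines), ranked, circles for the large and squares for the small subunit; the dashed line is the median of all tested probes (0.17). Values run from -0.79 (Mrpl54) to 1.52 (Mrps5), and both subunits occur along the whole range.

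Members with known roles were looked at whatever their values. In the small subunit, the decoding protein Mrps12 had a loading difference of -0.25 (SE 0.29), Mrps7, which binds the ribosomal RNA at an early step of assembly, of -0.18 (SE 0.33) and Mrps16, which is linked to human disease, of -0.50 (SE 0.36). Mrps35 had 0.55 (SE 0.28). The 3 paralogues Mrps18a, Mrps18b and Mrps18c, of which Mrps18a sits in the large subunit, had -0.13 (SE 0.41), -0.08 (SE 0.30) and 0.08 (SE 0.30). Mrps30, also a large subunit protein despite its name, had 0.23 (SE 0.28), as had Mrps36 (SE 0.27), which is now known as a subunit of the oxoglutarate dehydrogenase complex. In the large subunit, Mrpl3, at the base of the peptidyl transferase centre, had 0.69 (SE 0.30), and the stalk proteins Mrpl10, Mrpl11 and Mrpl12, which bring translation factors to the ribosome, had 0.22 (SE 0.33), -0.22 (SE 0.33) and -0.39 (SE 0.34). Mrpl41, Mrpl44 and Mrpl45, the last facing the membrane at the exit of the tunnel, had 0.00 (SE 0.33), 0.54 (SE 0.32) and 0.24 (SE 0.32). In Mrpl3, Mrps35 and Mrpl44 all Het mice lay above all WT mice, with an exact permutation p of 0.1 each, the smallest that 3 against 3 can give. Of the 18 members chosen for their roles, which include Mrps22 and Mrps34 described above, Mrps22 was the one with an unadjusted p under 0.05 in limma.

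Counted by name, the medians of both subunits lay within 0.15 of each other in every comparison. In loading the median was 0.12 for the large and 0.08 for the small subunit, a difference of 0.04, and 0.05 when Mrps18a and Mrps30 were counted as large and Mrps36 was left out. In Het against WT whole muscle the medians were 0.08 and 0.07, in polysomes 0.22 and 0.16, and in monosomes 0.39 and 0.39. Between polysomes and whole muscle of WT they were 0.11 and 0.03 by name, and 0.08 and 0.23 by structure, so the order of the subunits depended on how Mrps18a, Mrps30 and Mrps36 were counted. It did so too in monosomes, where large minus small was 0.00 by name and -0.04 by structure, and in Het polysomes against whole muscle, with 0.04 and -0.02. By origin, the median loading difference was 0.02 over the 48 members with a bacterial homologue and 0.26 over the 28 specific to mitochondria. No test was made of these list medians.

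In whole muscle, 57 members lay above 0 in Het against WT, a direction that turned in other settings. The differences, Het minus WT, ran from -0.79 to 0.48 with a median of 0.07, against -0.03 over all probes. The members' median was -0.05 with array brightness as a term and -0.05 within slide 1. Unadjusted p was under 0.05 for no member in the higher direction (background 3.17%) and for 1 in the lower (background 5.3%), which was Mrpl37, with -0.79 (SE 0.33, adjusted p = 0.567). No member passed the adjusted threshold, against 0.0101% of all probes. Highest were Mrpl19, with 0.48 (SE 0.23), Mrpl1, with 0.45 (SE 0.25), Mrpl2, with 0.37 (SE 0.21), and Mrps2, with 0.31 (SE 0.19). Lowest after Mrpl37 were Mrpl9, with -0.39 (SE 0.28), Mrpl42, with -0.38 (SE 0.38), and Mrps5, with -0.32 (SE 0.26). Within slide 1 Mrpl1 had -0.07, and with array brightness as a term Mrpl2 had -0.01 and Mrps5 0.17. Among 75 oxidative phosphorylation genes, 59 lay above 0 in the same comparison.

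On polysomes, more members were higher than lower in Het. At an unadjusted p under 0.05, 17 members (22.1%) were higher in Het and 3 (3.9%) lower, against a background of 10.3% higher and 4.84% lower. No member and no tested probe (0%) passed the adjusted threshold, where the smallest adjusted p among members was 0.192. The median over members was 0.21, against 0.05 over all probes, 0.00 over cytosolic ribosomal proteins and 0.00 over oxidative phosphorylation genes. In 27 members (35.1%) the Het arrays all lay above the WT arrays and in 4 (5.19%) all below, where the background was 13.2% and 8.61%. A difference over 1 with unadjusted p under 0.05 was met by 6 members higher in Het (7.79%, background 4.19%) and by no member lower (background 1.55%). The counts ran from 12 to 20 higher and from 1 to 3 lower when each array was left out in turn, where 4.94% to 13.6% of all probes were higher and 2.15% to 6.08% lower. With array brightness as a term 15 were higher and 0 lower, against 5.21% and 4.15% of all probes, and within slide 1 and within slide 2 the higher members numbered 0 and 3, against 0.617% and 1.73%.

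Mrpl50, a large subunit protein specific to mitochondria, had the highest polysome difference, and WT polysome 2 set much of it. Its polysome signal was 8.19, 5.77 and 8.32 in WT and 8.96, 9.03 and 8.70 in Het, so that the difference of 1.47 (SE 0.54, adjusted p = 0.279) became 0.64 without WT polysome 2. A second Mrpl50 probe, with 4.92, 6.36 and 5.79 in WT, gave 0.12, and on it WT polysome 2 was the highest WT array. Mrps5 was next, with 1.20 (SE 0.26, adjusted p = 0.192), then Mrps22, with 1.14 (SE 0.32, adjusted p = 0.226), and Mrps27, with 1.14 (SE 0.26, adjusted p = 0.202). Mrps27 was 5.08, 5.75 and 5.94 in WT and 6.84, 6.70 and 6.64 in Het polysomes, and without WT polysome 2 its difference was 1.22, while that of Mrps22 was 0.76, and 0.48 within slide 2. Mrps5 was not well above background on WT polysome 2, and its difference was 1.21 without that array and 0.48 with normexp, where that of Mrps27 was 0.60.

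Beside the members, the marker lists of other tissue components were compared on the same arrays. Summed log2 signals of 5 fibroblast and matrix markers were 15.79 to 15.85 in WT and 15.19 to 15.35 in Het polysomes, and those of the 9 muscle fibre markers were 19.84 to 19.93 in WT and 19.99 to 20.04 in Het polysomes. Neither list overlapped between genotypes, and nor did the blood list, while immune, endothelial, adipocyte, slow fibre and Schwann cell lists did. The part of tissue makeup in the polysome differences was not tested.

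Members lower on Het polysomes included Mrpl54, Mrpl20 and Mrpl52. Mrpl54 was 10.79, 11.78 and 10.66 in WT and 10.65, 10.37 and 10.02 in Het, a difference of -0.73 (SE 0.30, adjusted p = 0.301) that was -0.38 without WT polysome 2. Mrpl20 was 11.45, 11.78 and 11.28 in WT and 11.05, 10.87 and 10.92 in Het, a difference of -0.56 (SE 0.19, adjusted p = 0.27). Mrpl52 had -0.48 (SE 0.21, adjusted p = 0.321) and Mrps16 -0.40 (SE 0.25, adjusted p = 0.43), the latter -0.14 without WT polysome 2. The Het arrays lay below the WT arrays in the first 3 of these. The higher and lower members were split by probe brightness: across the 77 members the difference correlated with mean probe signal (Spearman's rho -0.743, with probes sharing the same 6 arrays), against -0.0689 over all 19785 probes. With the GC share of the probe, rho was -0.247 over the members and -0.347 over all probes.

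**Figure D5:**
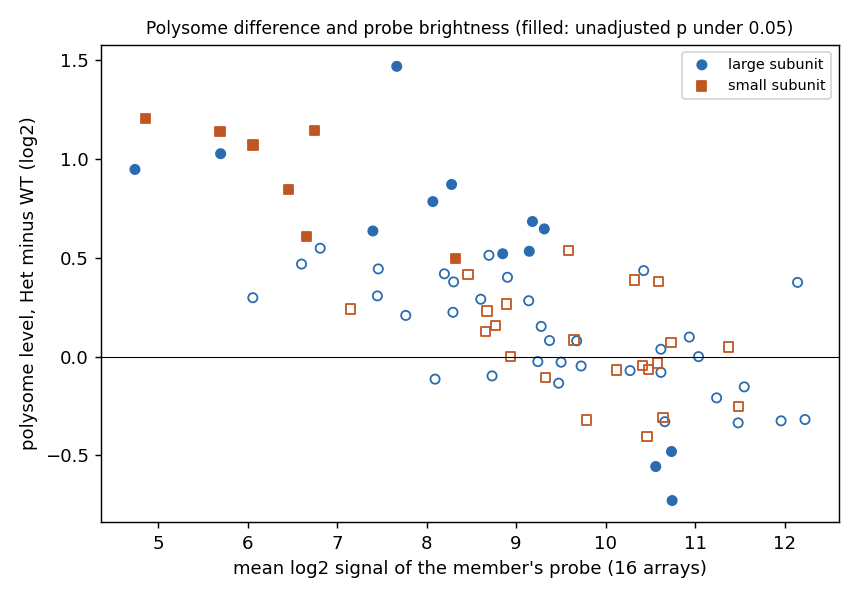
Polysome signal of each member, Het minus WT in log2 (vertical), against the mean log2 signal of its probe over 16 arrays (horizontal), circles for the large and squares for the small subunit, filled where the unadjusted p was under 0.05. Of 17 filled members above 0, 16 are among the 38 dimmer probes, and the 3 filled members below 0 are among the 39 brighter ones.

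The same split was seen in loading. Among the 38 members with dimmer probes, 35 had a loading difference above 0, with a median of 0.37, and among the 39 with brighter probes 12 did, with a median of -0.13. The correlation of loading difference with probe signal was -0.739 over the members and -0.233 over all probes. Within each mouse, loading was higher for brighter probes in WT, with Spearman's rho over the members of 0.625, 0.617 and 0.553, and less so in Het, with 0.344, 0.0976 and 0.0403, so all 3 WT values lay above all 3 Het values. The GC share of the probes, 28.3% to 55%, gave rho -0.161 with the loading difference over members, and over all probes -0.258, which was further from 0 than the -0.233 for signal. WT arrays were dimmer on polysomes than in whole muscle in mice 1 and 2, by 1.46 and 1.25 on the log2 scale of the 75th percentile, but brighter in mouse 3, by 0.64, and Het arrays were brighter on polysomes in all 3 mice, by 1.16 to 2.98. WT mouse 3 had a rho of 0.553, and its brightness difference of 0.64 lay below the 1.16 to 2.98 of the Het mice. The part of array brightness in this split was not tested beyond the fit with a brightness term, in which the correlation for loading was -0.519 and that for polysomes -0.735.

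By promoter motif, the 12 members with YY1 letters had a median loading difference of 0.65, with 8 above 0, and the 56 without had 0.09, with 35 above 0. Over all genes with a window and a tested probe, the medians were 0.27 for 447 genes with the letters and 0.19 for 8138 without. The 25 members with ETS letters had 0.00 and the 43 without 0.20, while over all genes the order was the other way, with 0.22 and 0.18. For NRF1 letters the medians were 0.07 in 8 members with and 0.13 in 60 without, and 0.18 and 0.20 over all genes. Probe signal differed as well, with medians of 8.38 and 9.28 for members with and without YY1 letters and 10.12 and 8.68 for those with and without ETS letters.

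On monosomes, where each genotype had 2 arrays, 30 members (39%) were higher in Het at an unadjusted p under 0.05 and none lower, against a background of 19.8% higher and 13.2% lower. The 30 include Mrps5, whose signal stayed near background throughout the monosome arrays. They also include Mrpl35, Mrpl49, Mrpl50, Mrps9, Mrps22 and Mrps35, which were near background on WT monosome 2. With only probes well above background on every array, 24 members were higher and 2 lower, against 18.3% and 16.7% of those probes. In the fit with all tested probes, no member passed the adjusted threshold, against 0.499% of all probes, and the smallest adjusted p was 0.0519. The median over members was 0.39, against 0.10 over all probes, and 59 of 77 lay above 0. Array WT monosome 2 weighed on the largest values, and Mrpl50, Mrps9 and Mrpl35 were not well above background on it, so for them 1 of the 2 WT values is at background. Mrpl50 was 7.10 and 1.78 in WT and 8.17 and 7.78 in Het, so its difference of 3.53 (SE 1.21, adjusted p = 0.102) was 0.87 without WT replicate 2. Mrpl18, a large subunit member whose bacterial homologue binds ribosomal RNA, was 9.35 and 6.35 in WT and 10.33 and 10.002 in Het, a difference of 2.32 (SE 0.67, adjusted p = 0.0894) that became 0.82. Mrps9, with 2.11 (SE 0.59, adjusted p = 0.0879), became 0.75, and Mrpl35, with 2.10 (SE 0.65, adjusted p = 0.0931), became 0.78. With normexp the differences of Mrpl50, Mrps9 and Mrpl35 were 1.43, 0.55 and 0.40.

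Without WT replicate 2, which leaves 1 WT monosome array assumed to vary like the others, 14 members were higher in Het and none lower at an unadjusted p under 0.05, against 5.75% and 3.36% of all probes, and the median over members was 0.46 against -0.01 over all probes. Without WT replicate 1, 26 members were higher and 5 lower with adjusted p under 0.05, but so were 32.4% and 21.2% of all probes. Lowest among members were Mrpl39, with -0.65 (SE 0.31, adjusted p = 0.154), Mrps10, with -0.56 (SE 0.26, adjusted p = 0.157), Mrpl2, with -0.55 (SE 0.33), and Mrpl38, with -0.50 (SE 0.41), and without WT replicate 2 these became -0.34, -0.34, -0.13 and 0.03. With all tested probes of the gene averaged, Mrpl39 had -0.14. In the same comparison 77 of 80 cytosolic ribosomal protein genes and 62 of 75 oxidative phosphorylation genes lay above 0. The probes of Mrpl19, Mrps5 and Mrps27 were not well above background on either WT monosome array, and no fold is given for them. Mrpl19 was 4.15 and 5.49 in WT and 5.23 and 5.35 in Het monosomes, so its groups overlapped (limma's adjusted p = 0.381). Summed muscle fibre markers were 19.18 to 19.44 in WT and 19.57 to 19.59 in Het monosomes, blood markers 16.82 to 17.67 and 16.46 to 16.56, and fibroblast and matrix markers 15.73 to 15.93 and 14.84 to 15.61. These 3 lists did not overlap between genotypes, nor did the immune and adipocyte lists, which were lower in Het, and their part in the monosome differences was not tested.

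Members were more abundant on polysomes than on monosomes in most cases. In the 4 mice with both kinds of RNA, the median of polysome minus monosome was 0.63 over the 77 members and 0.17 over all probes, and 68 of 77 lay above 0. At an unadjusted p under 0.05, 43 members (55.8%) were higher on polysomes and 5 (6.49%) lower, against a background of 24.6% and 16.6%. The 43 include Mrps5, Mrps27 and Mrpl19, whose probes were not well above background on either WT monosome array. Among probes well above background on every array, 40 members were higher and 5 lower, against 31.7% and 27.9% of those probes. In the fit with all tested probes, none of the members or of all probes (0%) passed the adjusted threshold, and the smallest adjusted p was 0.0551. With 75th percentile scaling 27 members passed in the higher and 5 in the lower direction, against 15.7% and 9.55% of all probes, and with normexp 39 and 5, against 15.9% and 9.06%. Without WT replicate 1 the counts were 41 and 5, against 31.9% and 17.8%, without WT replicate 2 they were 29 and 5, against 19% and 14.6%, and without Het replicate 1 or without Het replicate 3 they were 0 and 0, as over all probes (0%). At an unadjusted p under 0.05, 11 members were higher without Het replicate 1 and 10 without Het replicate 3, against 8.3% and 9.65% of all probes. Summed muscle fibre markers were 19.84 to 20.04 on the 6 polysome arrays and 19.18 to 19.59 on the 4 monosome arrays, and adipocyte markers 12.57 to 13.76 and 10.79 to 12.08. These 2 lists did not overlap between polysomes and monosomes, the other 6 marker lists did, and their part in the difference was not tested. The median was 0.74 over oxidative phosphorylation genes and -0.55 over cytosolic ribosomal proteins.

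Over all 4 mice the highest mean of polysome over monosome was that of Mrps22, with 1.32 and 2.55 in the WT mice and 1.39 and 1.54 in the Het mice, a mean of 1.70 (SE 0.29, adjusted p = 0.0551). Mrps9 had 1.01, 3.41, 0.99 and 1.36, a mean of 1.69 (SE 0.44, adjusted p = 0.0703). Mrps5 was also among the 3 highest in the fit (adjusted p = 0.0551), but all 4 monosome arrays and WT polysome 2 had it not well above background, so no fold is given, and with normexp its difference was 0.35 on the log2 scale. WT mouse 2 gave the highest ratio in Mrps22 and Mrps9, neither of which was well above background on its monosome array. In the fit without WT replicate 2, which weights the genotypes equally, Mrps22 and Mrps9 had 1.39 and 1.09, and with normexp all 4 mice gave 0.80 and 0.56. The plain mean of the other 3 mice was highest in Mrps31, a small subunit member, with 1.66, and that of Mrps22 was 1.42. Lowest were Mrps24, with -0.93 and -1.04 in WT and -1.46 and -1.97 in Het, a mean of -1.35 (SE 0.22, adjusted p = 0.0551), Mrpl42, with -1.30 (SE 0.25, adjusted p = 0.0557), and Mrpl30, with -1.23 (SE 0.26, adjusted p = 0.0586). Mrps24, Mrpl42 and Mrpl30 lay lower on polysomes in all 4 mice.

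The other genes of mitochondrial translation gave no adjusted call in Het against WT loading or polysomes, and neither did any tested probe (0%). The lack of a call is therefore not specific to these genes. In loading, the median over all probes, given earlier, was also positive. The part of probe brightness in the values of these genes was not tested. Of 6 ribosomal proteins with other names, 2 had loading above 0, from -0.48 for Chchd1 to 0.51 for Ptcd3. Of 15 translation factors, 13 lay above 0 with a median of 0.49, from -0.42 for the initiation factor Mtif2 to 1.23 (SE 0.43, adjusted p = 0.227) for Guf1, a GTPase related to a bacterial factor that moves ribosomes back along the mRNA. The elongation factor Tsfm had 1.15 (SE 0.29, adjusted p = 0.128). Of 23 tested assembly factors, 20 lay above 0 with a median of 0.50, from -0.31 for the helicase Dhx30 to 2.50 (SE 0.75, adjusted p = 0.177) for the rRNA methyltransferase Ftsj2. On Het polysomes, 6 of the 15 factors and 6 of the 23 assembly genes were higher at an unadjusted p under 0.05 and none lower, against 10.3% and 4.84% of all probes.

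The mRNAs that the mitochondrial ribosome itself translates were also on the array. Of 13 proteins of mitochondrial DNA, 12 fell on WT polysomes against whole muscle with adjusted p under 0.05, with a median of -3.82, and 5 did in Het, with a median of -1.88, where 10.7% and 4.04% of all probes were lower. The loading difference had a median of 1.78 and ran from -0.90 for ND6, which alone is read from the light strand, to 2.62 (SE 0.86, adjusted p = 0.202) for ND4, and 7 of 13 were higher with an unadjusted p under 0.05, against 8.14% of all probes. On monosomes against polysomes all 13 lay higher, with a median polysome difference of -3.24. These mRNAs lie within mitochondria and not on cytosolic ribosomes.

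Several members had more than 1 tested probe, and the probes did not always give the same value. Among 20 such members the spread of the loading difference between probes had a median of 0.33 and reached 2.46, and in 9 members the sign differed between probes. In Mrpl39 the probe used had 0.10 and a dim one, well above background on 7 of 12 arrays, had 2.57. In Mrps18b the 2 bright probes had -0.08 and -0.14 and a dim one 1.40. In Mrpl50 the values were 1.25 and -0.02, and in Mrpl49 0.72 and -0.49. In Mrpl23, Mrpl40, Mrpl43 and Mrps21 the probes differed by at most 0.06.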

How the data were processed

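Polysome, monosome and whole muscle RNA of WT and Het mice was labelled with Cy3 and hybridised to 16 one-colour arrays. The authors deposited scanner intensity values per spot, extracted with Agilent Feature Extraction 11.0.1.1 per the file headers, which also give probe positions on mm9, and a table of processed log2 values, used here only as an alternative. Starting from the background-subtracted intensity as deposited, flagged spots were left out, log2 values of a probe's spots were averaged and arrays were quantile normalized, as in the study, 12 together for whole muscle and polysomes and all 16 where monosomes entered. Tested probes were those well above background on all arrays of 1 group or more. Differences were fitted with limma 3.58.1 in R 4.3.3 (with the package data.table, version 1.17.8), with the mouse as the unit of loading and of polysome against whole muscle or monosome RNA, and p-values were adjusted by Benjamini-Hochberg over all tested probes. Quantile normalization forces equal distributions, so shifts of all probes are not seen. Mouse pairing came from the replicate numbers within a genotype, and deviations of the same mouse correlated with r between 0.0582 and 0.485.

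The members and lists were chosen with earlier results of these data known. Named were the 4 highest and 4 lowest members between genotypes, the 3 highest and 3 lowest between kinds of RNA, 18 members with known roles, and the extremes of other lists. Other genes were named after their values were seen. Symbols were the array's own, and 75 of 77 members matched the same symbol in RefSeq by accession. The fits of loading, whole muscle and polysomes between genotypes were tested on simulated data. The fits with monosomes and those of polysomes against whole muscle were not. Depth does not apply to arrays, whose number limits the precision.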

Additional observations from a re-analysis of the deposited data

How the results depend on the processing

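Values here are the members' median minus the median of all tested probes (log2). For loading the value was -0.07, and it turned to 0.12 with no filter on dim probes, 0.073 within slide 1 and 0.28 with a term for array brightness. The value lay just above 0 too, by 0.0099 to 0.057, within slide 2, with probes well above background on every array, with the authors' table, with slide as a term, without Het replicate 2 and without WT replicate 2. For whole muscle 0.10 turned to -0.13, and for polysomes against whole muscle in WT 0.05 turned to -0.11, both with the brightness term, and the latter was -0.081 with the mean of all probes of a gene, -0.00075 with 75th percentile scaling and -0.10 without WT replicate 2. For Het polysomes against whole muscle, 0.12 became 0.28 with no filter and 0.32 with the brightness term. For monosomes, 0.29 became 0.48 without arrays WT polysome 2 and WT monosome 2. For polysomes against monosomes, 0.46 became 0.41 with normexp, 0.56 with 75th percentile scaling, 0.66 with no filter, 0.53 with probes well above background on every array, and 0.52 with slide as a term and also without those 2 arrays. The cause was not tested. Leaving out 1 mouse at a time gave -0.18 to 0.06 for loading, 0.07 to 0.20 for whole muscle, 0.068 to 0.208 for polysomes, 0.21 to 0.48 for monosomes, -0.10 to 0.14 for WT and 0.09 to 0.23 for Het polysomes against whole muscle, and 0.37 to 0.52 for polysomes against monosomes. The brightness term and the omission of the 2 arrays were chosen after seeing the data.

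Replicate numbers were not taken to pair mice across genotypes. Deviations of same-numbered arrays correlated with r from -0.329 to 0.456, which overlaps the range within a genotype and so cannot settle the pairing. With the replicate block as a term the values were 0.10 for whole muscle, 0.16 for polysomes and 0.39 for monosomes, and the polysome count was 16 higher and 2 lower, against 9.31% and 5.35% of all probes. With no replicate block, that is, without the mouse as a block, loading stayed at -0.07, polysomes against whole muscle were 0.05 in WT and 0.12 in Het, and polysomes against monosomes were 0.48, with 35 members higher and 5 lower after adjustment, against 16.9% and 9.08% of all probes. Of 1144 values of single members under other settings, 102 no longer passed the unadjusted threshold and 40 newly passed it. Direction turned in 38 others, in 16 results of single members, none of which had an unadjusted p under 0.05, among them the loading of Mrpl41 (-0.19 to 0.78), Mrps7 (-0.40 to 0.34), Mrps18a, Mrps18b and Mrps18c. Adjusted counts were higher with normexp and with the authors' table for monosomes, at 10 and 11 members, all higher, against 2.52% and 3.09% of all probes.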
